A study of Mus musculus with 2 samples.

Results

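Mir33, the 3 genes of the miR-148 family (Mir148a, Mir148b and Mir152) and Mir185 are 5 microRNA (miRNA) genes reported to repress mRNAs of cholesterol uptake and efflux. They were chosen by name from that role and not by a rule on their counts, though earlier results of these data were known. They make up 5 of the 2202 miRNA genes in the tables. Small RNA under 30 nt was sequenced from total RNA of the left cerebral cortex; the mice were adult females of strain 5xFAD/CAST, aged 8 to 10 months. 5xFAD mice carry human transgenes with mutations of familial Alzheimer's disease, driven by the neuronal Thy1 promoter, and CAST is a wild-derived strain; the labels name the strain and no allele. The series holds 1 group of 2 libraries, with no other genotype, age or treatment, so every mouse sampled is of the transgenic strain and the libraries can only be described and compared with each other. Both libraries name the same donor entry but different tissue samples, and separate animals are not stated, so p-values concern how these libraries differ and that spread may be technical.

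A miRNA pairs through its seed, bases 2 to 8 of the mature strand, with sites in the 3′ UTR of an mRNA, and the paired mRNA is translated less and decays faster. Srebf2 encodes SREBP2, the transcription factor that turns on cholesterol synthesis and uptake when sterols are scarce, and Mir33 sits within it, so that one transcript can give both the factor and a repressor of the cholesterol exporter Abca1. In the brain, cholesterol is made locally, and Abca1 loads it onto apolipoprotein E particles that pass between glia and neurons. miR-148a has also been reported to repress Abca1, and miR-185 to repress Srebf2 and the HDL receptor Scarb1.

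The mature sequences show why the family is grouped together and why Mir33 stands outside it. Of the mature miRNAs of these genes, 9 were found in the RefSeq table for GRCm38.p6, the assembly of mm10. For Mir185 only the 3p strand was among them, so miR-185-5p and its seed were not examined. The seed is in capitals and the strands are written 5′ to 3′.
mmu-miR-33-5p: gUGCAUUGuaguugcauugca
mmu-miR-148a-3p: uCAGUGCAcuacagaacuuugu
mmu-miR-148b-3p: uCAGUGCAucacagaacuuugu
mmu-miR-152-3p: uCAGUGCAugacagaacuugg
mmu-miR-185-3p: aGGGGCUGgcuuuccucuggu
The family's 3p strands shared the seed CAGUGCA and were identical over their first 8 bases. Counted from 1 at the 5′ end, with the first-named strand's base first, miR-148a-3p differed from miR-148b-3p by C9U and U10C, with 20 of 22 bases identical. From miR-152-3p, which is 1 base shorter, it differed by C9U, U10G and U20G, with 18 of 21 identical. miR-148b-3p and miR-152-3p differed by C10G and U20G. No other miRNA of the 1738 mature sequences in the table carried the seed CAGUGCA or the miR-33-5p seed UGCAUUG. The miR-185-3p seed GGGGCUG was shared with mmu-miR-7048-5p, whose gene Mir7048 had 0 counts in both libraries.

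The 5p strands of Mir148a and Mir148b also shared a seed, and that of Mir152 did not.
mmu-miR-148a-5p: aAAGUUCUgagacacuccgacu
mmu-miR-148b-5p: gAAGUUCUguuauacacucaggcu
mmu-miR-152-5p: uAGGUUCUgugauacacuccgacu
The tables give 1 count per hairpin gene, the precursor that holds both strands, so the level of a 5p or a 3p strand was not measured separately. None of the 5 hairpins shared a stretch of 18 bases with another annotated miRNA gene, on either strand. A read of that length or longer that matches without mismatches therefore has 1 locus among these genes.

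Seed matches in cholesterol genes are given as a description of letters, not of sites in use. No seed of Mir185 was searched for. Of 13 genes of cholesterol transport, synthesis and fatty acid oxidation whose annotated 3′ UTR was searched on its sense strand, 5 held CAATGCA, the complement of the miR-33-5p seed, and 5 held TGCACTG, that of the miR-148 family. Over the 20979 genes with a 3′ UTR, 7.07% held the first and 12.6% the second. Abca1 held both. The Abca1 UTR carried 3 matches to the miR-33-5p seed within 30 bases, from base 131 to base 160 of a UTR of 3156 nt (mm10 chr4:53033783-53033812, minus strand). They are in capitals below, and the first of them runs into the next.
Abca1: tattCAATGCAATGCActtCAATGCAacga
Among UTRs of 0.8 to 1.25 times that length, 15.7% held at least 1 such match. The Abca1 UTR also had 2 matches to the miR-148 family seed, and 25.1% of UTRs of that length held at least 1. Abcg1, another exporter, had 2 matches for miR-33-5p, against 17.9% of UTRs of its length with any. Cpt1a and Crot, which act in fatty acid oxidation, had 1 each, against 10.1% and 3.52% of UTRs of their lengths with any. Srebf1 and Insig1, a partner gene that holds SREBP precursors in the endoplasmic reticulum, had 1 match each for the miR-148 family. Of UTRs of their lengths, 8.68% and 17.3% held at least 1 such match.

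Replicate 1 comprised 12978140 reads, with 4226300 on the strand of a miRNA gene. Replicate 2 comprised 15950006 reads, with 5162369 so placed. Levels are those counts scaled to a common total of 1000000 (CPM), and 309 of the 2202 genes reached 10 CPM in both libraries. A count of 0 allows up to 3 counts, or 0.71 CPM in replicate 1 and 0.581 CPM in replicate 2. Intervals are 95% Wilson intervals for levels and shares and exact binomial ones for ratios, and all cover counting error only. The neuron list took 7.47% and 4.91% of counts in replicates 1 and 2, the astrocyte list 4.60% and 4.25%, and the oligodendrocyte list 1.19% and 1.06%. The microglia and immune list took 1.03% and 0.567%, the endothelium and mural list 1.33% and 1.93%, the choroid plexus and ependyma list 0.104% and 0.172%, and the liver and gut list 0.039% and 0.0575%. These sums follow their most counted genes, and genes of 1 list could go opposite ways. In the neuron list, Mir132 stood at 40577 and 21189 CPM in replicates 1 and 2. Mir138-1 stood at 4244 and 4820 CPM, and Mir138-2 at 2577 and 3206 CPM. In the endothelium and mural list, Mir126a stood at 7756 and 13122 CPM, and Mir145a at 235 and 169 CPM. In bulk tissue, fewer cells of a type and less RNA per cell cannot be told apart.

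All 5 genes were counted in both libraries and passed every filter on low values: 5 of 5 reached 10 CPM in both and 100 counts in the sum. Their joint share of miRNA gene counts was small, at 0.0306% (0.029% to 0.0323%) in replicate 1 and 0.215% (0.211% to 0.219%) in replicate 2. Mir185 set the direction of that gap. Without it, the other 4 genes summed to 146 CPM in replicate 1 and 108 CPM in replicate 2, the higher value being in replicate 1. Mir185 made up 52.4% of the counts of the 5 genes in replicate 1 and 95.0% in replicate 2.

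By mean level the order was Mir185 (1102 CPM ± 1331, SD, n = 2), Mir148b (48.4 ± 19.9), Mir33 (28.9 ± 6.46), Mir148a (26.5 ± 7.05) and Mir152 (23.2 ± 5.68). The median over the 309 genes at 10 CPM or more was 249.5 CPM, so 4 of the 5 lay well below the middle of the measured miRNAs, while 28.5% of those genes lay above Mir185. The mean levels of Mir33 and Mir148a, and of Mir148a and Mir152, lay closer together than the SD of either gene. Mir148b and Mir33 also differed by less than the SD of Mir148b. Mir185 was above the other 4 in each library, but its lead over Mir148b was smaller than its own SD. The hairpins are 65 to 99 nt long. Per 100 bases of hairpin, mean levels were 1695 CPM for Mir185, 49.9 for Mir148b, 41.9 for Mir33, 31.8 for Mir152 and 26.8 for Mir148a, which puts Mir152 before Mir148a.

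**Figure D1:**
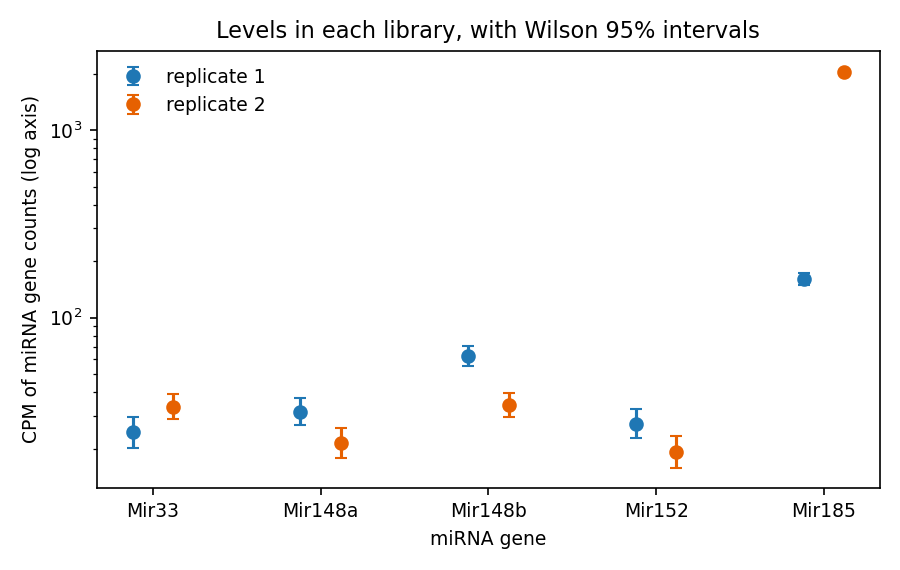
CPM of miRNA gene counts (log axis) of each of the 5 genes in replicate 1 (blue) and replicate 2 (orange), with points for the library's value and bars for Wilson 95% intervals. Mir185 stands at 160 and 2043 CPM, while the 4 other genes lie between 19.2 and 62.5 CPM.

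**Figure D2:**
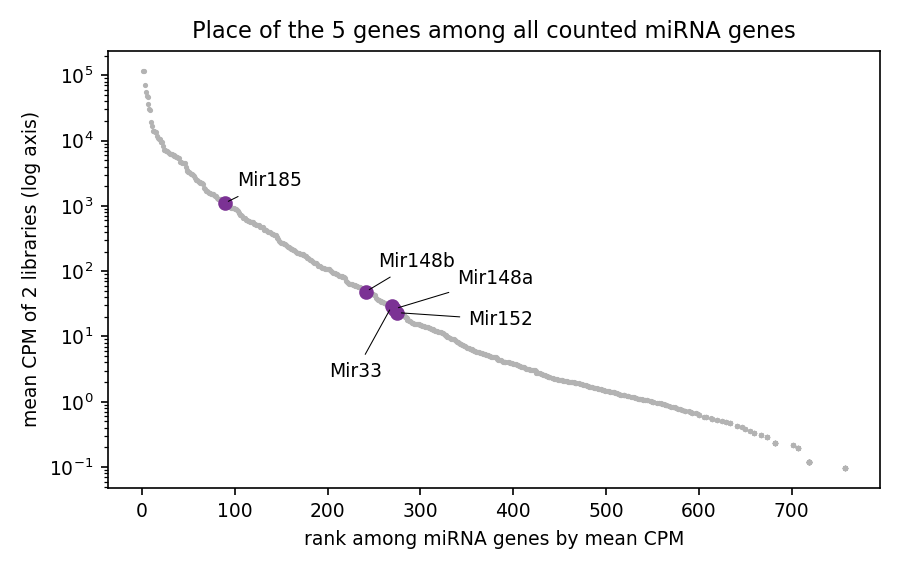
Mean CPM of the 2 libraries (log axis) against rank for all miRNA genes with a count, with the 5 genes in purple. Mir185 ranks 89th, Mir148b 241st, and Mir33, Mir148a and Mir152 rank 269th, 272nd and 275th.

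Mir33 (ENSMUSG00000065465.1), the repressor of Abca1 within the SREBP2 gene, lies at mm10 chr15:82198122-82198190 on the plus strand, in intron 16 of the 18 introns of Srebf2 (ENSMUSG00000022463.8). Its counts were 103 and 173 in replicates 1 and 2, or 24.4 CPM (20.1 to 29.6) and 33.5 CPM (28.9 to 38.9). Replicate 2 was higher by 1.34-fold, with an exact interval of 1.05 to 1.73, a log2 ratio of 0.43 and an adjusted p of 0.0322 in the exact binomial test. That test sets the libraries against counting error after TMM scaling, a scaling by the bulk of the genes, and adjusts over all tested genes by the Benjamini-Hochberg method. The libraries lay apart, but the Wilson intervals of their levels overlapped. Its nearest genes in mean level were Mir3093 at 29.1 CPM and Mir679 at 28.6 CPM, a likeness over 2 libraries only.

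Mir148b (ENSMUSG00000065560.1) was the most counted gene of its family, and lies at mm10 chr15:103285125-103285221 on the plus strand, in the first intron of Copz1 (ENSMUSG00000060992.9), which encodes a subunit of the COPI vesicle coat. Replicate 1 gave 264 counts and replicate 2 gave 177, or 62.5 CPM (55.4 to 70.5) and 34.3 CPM (29.6 to 39.7). Replicate 1 was higher by 1.86-fold (1.53 to 2.27), with a log2 ratio of -0.90 and an adjusted p of 3.32e-10 in the exact binomial test. The intervals of the libraries did not overlap. Mir1188 (49.6 CPM) and Mir483 (48.1 CPM) were next to it in mean level.

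Mir148a (ENSMUSG00000065505.1), known as an abundant miRNA of liver, lies at mm10 chr6:51269812-51269910 on the minus strand. Of the 5 genes it is the 1 found in no intron of a protein-coding gene on its strand. It was counted 133 times in replicate 1 against 111 in replicate 2, or at 31.5 CPM (26.6 to 37.3) and 21.5 CPM (17.9 to 25.9). Replicate 1 was higher by 1.49-fold (1.15 to 1.94), with a log2 ratio of -0.58 and an adjusted p of 0.00417 in the exact binomial test. The intervals of the levels did not overlap, as for Mir148b, but the gap was narrower. Mir103-2 (27.3 CPM) and Mir9-1 (23.9 CPM) were its neighbours in mean level.

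Mir152 (ENSMUSG00000065515.1) lies at mm10 chr11:96850393-96850465 on the plus strand, in the first intron of Copz2 (ENSMUSG00000018672.15), the paralog of the Mir148b host. Of its 2 values, replicate 1 gave 115 counts and replicate 2 gave 99, or 27.2 CPM (22.7 to 32.7) and 19.2 CPM (15.8 to 23.3). Replicate 1 was higher by 1.45-fold (1.10 to 1.92), with a log2 ratio of -0.53 and an adjusted p of 0.0139 in the exact binomial test. The Wilson intervals of the libraries overlapped slightly. Mir448 (23.4 CPM) and Mir144 (22.9 CPM) flanked it in mean level.

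The family as a whole had 512 counts in replicate 1 and 387 in replicate 2, which is 121 CPM and 75.0 CPM, or 1.65-fold more in replicate 1 (1.44 to 1.89). Shares within the family do not depend on how libraries are scaled. Mir148b held 51.6% of family counts (47.2% to 55.9%) in replicate 1 and 45.7% (40.8% to 50.7%) in replicate 2. Mir148a held 26.0% (22.4% to 29.9%) and 28.7% (24.4% to 33.4%), and Mir152 held 22.5% (19.1% to 26.3%) and 25.6% (21.5% to 30.2%). For each of the 3 genes the intervals of the libraries overlapped. Within a library, the ratio of Mir148a to Mir152 counts was 1.16 (0.894 to 1.50) in replicate 1 and 1.12 (0.847 to 1.49) in replicate 2, so neither library placed one above the other beyond counting error. Mir148b exceeded both in each library, at 2.30 and 1.79 times Mir152. Mir33 shifted against the family: its ratio to the family's sum was 0.201 in replicate 1 and 0.447 in replicate 2. In replicate 1 it stood at 0.390 times Mir148b (0.308 to 0.492), and in replicate 2 at 0.977 times (0.788 to 1.21).

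**Figure D3:**
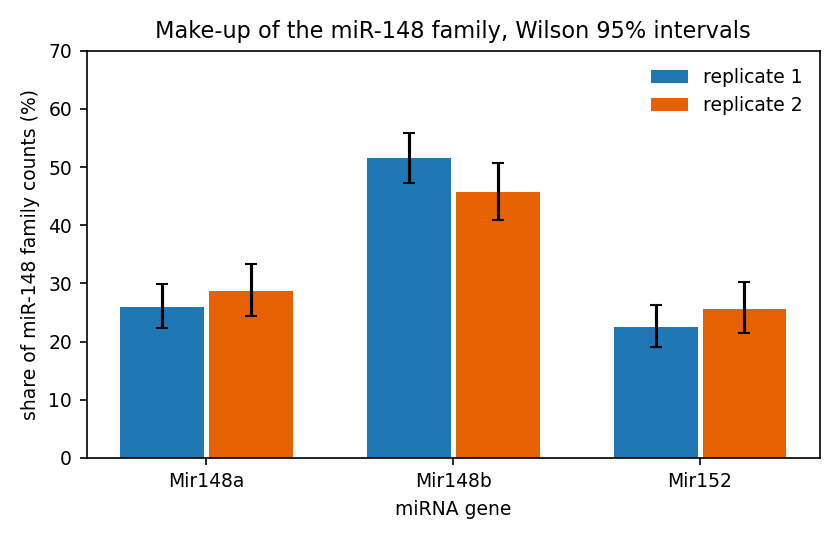
Share of miR-148 family counts (percent, axis from 0) held by Mir148a, Mir148b and Mir152 in replicate 1 (blue) and replicate 2 (orange), with Wilson 95% intervals. Mir148b holds 51.6% and 45.7%, and the bars of the libraries overlap in their intervals for each gene.

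Mir185 (ENSMUSG00000065464.2) lies at mm10 chr16:18327401-18327465 on the minus strand, in the first intron of Tango2 (ENSMUSG00000013539.14), named for transport and Golgi organisation. Its count was 678 in replicate 1 and 10546 in replicate 2, or 160 CPM (149 to 173) and 2043 CPM (2004 to 2082). Replicate 2 was thus far above replicate 1, and the mean of the pair describes neither library. The ratio was 12.5-fold (11.5 to 13.5), with a log2 ratio of 3.64. Its p in the exact binomial test is too small to be represented as a number. In edgeR's exact test with a biological coefficient of variation (BCV) of 0.1 the adjusted p was 1.06e-53, and with the BCV of 0.481 estimated from these libraries it was 0.0887, above the threshold of 0.05. The BCV of 0.481 takes in the very difference between the 2 libraries that is then tested, so that test could hardly call a gene. The rank of Mir185 by level went from 175 in replicate 1 to 64 in replicate 2. Among the 326 genes whose libraries summed to at least 100 counts, Mir185 had the rank 2 ratio towards replicate 2. Mir668 (1114 CPM) and Mir409 (1088 CPM) were its neighbours in mean level, with values of 1516 and 712 CPM for Mir668 in replicates 1 and 2 and of 1214 and 963 CPM for Mir409.

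Of those 326 genes, the ones with a log2 ratio nearest to that of Mir185 were Mir144, Mir451a and Mir592. Mir144 had 26 counts in replicate 1 and 205 in replicate 2, and was 6.21-fold higher in replicate 2. Mir451a, which shares a primary transcript with Mir144 and is abundant in red blood cells, had 127 and 4240 counts, a 26.6-fold difference. Mir592 had 74 and 363 counts, 3.91-fold higher in replicate 2. The nearest of these, Mir144, still lay 1.00 on the log2 scale from Mir185.

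Both Mir144 and Mir451a belong to the list of blood miRNAs, of which 4 of 5 were genes in the table. That list summed to 89.7 CPM in replicate 1 and 890 CPM in replicate 2, and none of its genes was at 0. Mir451a stood at 30.0 and 821 CPM, and Mir144 at 6.15 and 39.7 CPM. Mir486 went the other way, with 36.2 CPM in replicate 1 and 26.0 CPM in replicate 2, and so did Mir3107 on the opposite strand, with 17.3 and 2.91 CPM. In the exact binomial test 2 of these 4 genes were higher in replicate 2 and 2 in replicate 1. Mir451a shares stretches of 18 bases with Mir451b, and Mir486 and Mir3107 share them with each other, so these counts are uncertain where reads can map to both. The part of blood RNA in the Mir185 difference was not tested.

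**Figure D4:**
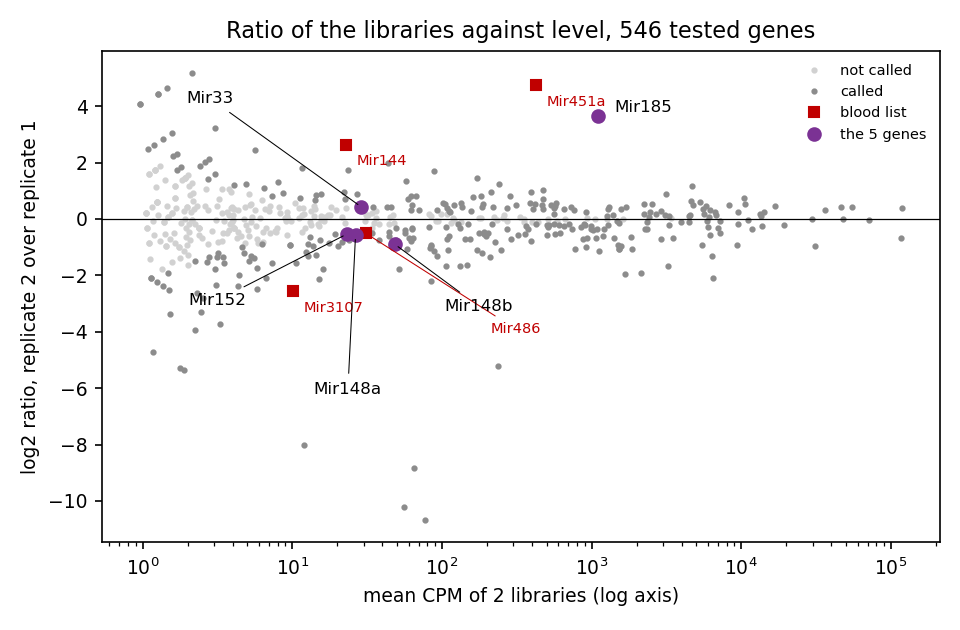
Log2 ratio of replicate 2 over replicate 1 against mean CPM (log axis) for the 546 tested genes, light grey where not called and dark grey where called, with the 5 genes in purple and the blood list in red. Mir185 lies at 3.64 and Mir451a at 4.74, and the other 4 purple points lie between -0.90 and 0.43.

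The count of calls has to be read against the whole table. In the exact binomial test 5 of 5 genes differed, where 58.8% of the 546 tested genes did (321 genes), and 77.9% of the 326 genes with at least 100 counts. Mir33 and Mir185 were higher in replicate 2, as were 24.5% of tested genes, and the 3 family genes were higher in replicate 1, as were 34.2%. The median log2 ratio was -0.53 over the 5 genes and -0.07 over all tested genes. With edgeR's exact test at a BCV of 0.1, 2 of 5 passed (Mir185 and Mir148b), against 28.8% of genes. The adjusted p of Mir148b was then 0.00218, that of Mir148a 0.109, that of Mir152 0.155 and that of Mir33 0.256. With edgeR's exact test at the BCV of 0.481, 0 of 5 passed, against 1.1% of genes (6 of 546), and 1 of 5 (Mir185) had an unadjusted p under 0.05, as did 29 of the tested genes. The BCV of 0.481 was estimated from the difference of the same libraries, so the few calls at it follow in large part by construction. Against counting error, the differences of Mir33 and of the family are thus larger, and they are of a size common in these libraries. By size of the ratio in either direction, Mir185 ranked 7 among the 326 genes, Mir148b 61, Mir148a 110, Mir152 123 and Mir33 160.

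The hairpins had no reads on the opposite strand, and no gene was annotated on the other strand at any of the 5. Host introns ranged from 676 bp for Mir152, which lies 517 bp from the start of the Copz2 transcript, to 19444 bp for Mir185. No other miRNA gene lay within 10 kb of any of the 5.

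Other miRNAs reported to act on lipid genes were counted from a list of 37 genes. Of these, 34 were tested and 27 differed in the exact binomial test, 8 higher in replicate 2 and 19 higher in replicate 1. Over all tested genes 58.8% differed: replicate 2 was above in 24.5% and replicate 1 in 34.2%. Of the 34 genes 29 had at least 100 counts in the sum, a level at which 77.9% of genes differed. With the test limited to genes of that level, 26 of the 29 differed, against 79.1% of all 326 such genes. The median log2 ratio of the 34 genes was -0.35. Among the 20 reported repressors of Abca1, 18 were tested, 4 were higher in replicate 2 and 9 in replicate 1. Of the 10 acting on lipoprotein uptake or HDL, 9 were tested, 1 was higher in replicate 2 and 7 in replicate 1. Of the 12 acting on lipid synthesis or secretion, all were tested, with 4 higher in replicate 2 and 6 in replicate 1. Of the 3 of the Mir96, Mir182 and Mir183 group, which are reported to act in the SREBP pathway, 2 were tested and both were higher in replicate 1. A gene may stand in several of these lists.

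The most counted of them exceeded all 5 genes in both libraries. Mir29a stood at 13027 CPM in replicate 1 and 10511 CPM in replicate 2, Mir125a at 12289 and 6545 CPM, and Mir128-1 at 9000 and 3687 CPM. Mir378a stood at 4061 and 3812 CPM, and Mir34a at 2921 and 3268 CPM. Among called genes of at least 100 counts, the largest ratios towards replicate 2 after Mir144 were those of Mir122, the main miRNA of liver, with 205 and 447 counts (1.74-fold), and Mir30c-1, with 646 and 1160 counts (1.44-fold). Both were far smaller than that of Mir185. Towards replicate 1, by the same rule, Mir302a had 656 counts against 0 in replicate 2, at least 273-fold higher in replicate 1 with the floor of 3 counts. Mir26a-2 had 1952 counts against 65, a 37.2-fold difference, and Mir21a had 14188 against 4642, a 3.81-fold difference. Mir26a-2, Mir30c-1, Mir128-1, Mir302a and Mir378a share stretches of 18 bases with other hairpins, so their counts are uncertain where reads can map to both.

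**Figure D5:**
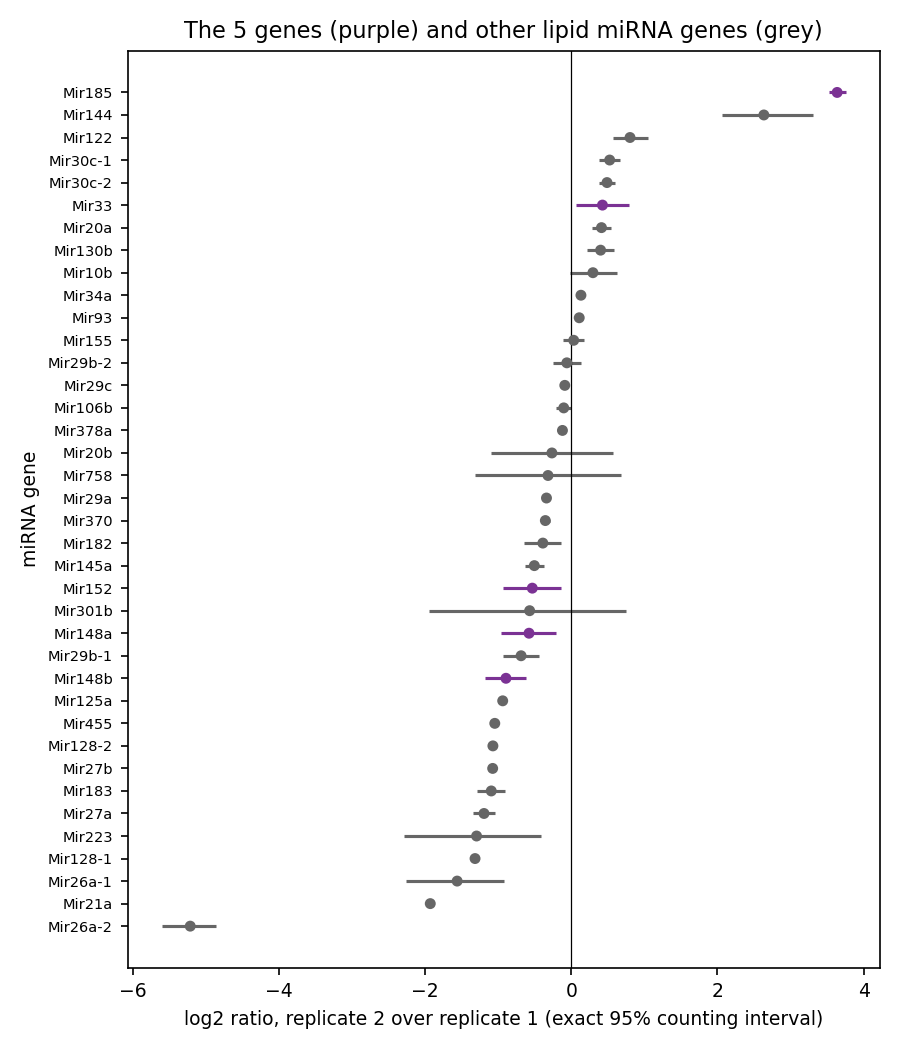
Log2 ratio of replicate 2 over replicate 1 with its exact 95% counting interval for the 5 genes (purple) and the other tested lipid miRNA genes (grey), sorted; Mir302a is left out because it has 0 counts in replicate 2. Mir185 lies at the top with 3.64 and Mir148b, Mir148a and Mir152 lie at -0.90, -0.58 and -0.53.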

How the data were processed

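Small RNA libraries were analysed from 1 group of 2 samples. For each library the authors deposited unnormalized counts of reads by miRNA gene (GENCODE M21 on mm10, per the record accompanying the files). The aligner, counter and trimming are not given in the sources used. Counts on the gene strand were used throughout. The first 4 rows, which name no gene, held 67.4% and 67.6% of reads and entered neither library sizes nor tests. They include reads mapping to several places, which gene counts therefore lack. How CAST alleles affect mapping was not tested.

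A two-sided exact binomial test (scipy 1.17.1) of replicate 2 against replicate 1 was run for genes whose libraries summed to at least 10 counts, with the expected share taken from TMM library sizes (edgeR 4.0.16, R 4.3.3), Benjamini-Hochberg adjustment over all tested genes and a threshold of 0.05. Ratios of a single gene between libraries add 0.5 counts to each library, apart from that of Mir302a, which uses the floor of 3 counts. Ratios of the family's sum, ratios within a library and intervals of ratios add none. The binomial test covers counting error alone. The edgeR exact tests used a BCV of 0.1 or the common BCV of an intercept-only fit (1 residual degree of freedom). The binomial test was tried on simulated counts that held counting error only, the spread that it assumes. The edgeR tests were not tried on simulated data. Alternatives were the column counted on either strand, DESeq2 1.42.0 size factors, total counts, TMM over all genes (chosen after seeing the data), other filters on low counts, 2 added counts, other denominators and leaving out each library.

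The 5 genes and the gene lists were chosen with earlier results of these data known. Named genes were the 5; of the lipid lists, the 5 with the highest mean CPM and the 3 called genes of at least 100 counts with the largest ratio each way; the blood list; the next gene above and below each of the 5 in mean CPM; the 3 genes nearest Mir185 in log2 ratio; genes sharing a seed; and host genes. Mature sequences came from RefSeq (GRCm38.p6), and 3′ UTRs from the M21 transcripts, with 1 transcript per gene. Matches in some of the genes searched are not reported here.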

Additional observations from a re-analysis of the deposited data

Results flagged for a closer look

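Reads mapping to several places were used in no comparison and made up a large part of both tables, with 5244644 reads (40.4%) in replicate 1 and 6290303 reads (39.4%) in replicate 2. Which of them derive from the 5 genes was not tested. The 5 hairpins share no stretch of 18 bases with another annotated miRNA gene.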

How the results depend on the processing

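Over 100 alternatives to 16 results, 8 lost their call, 14 moved (a level or share by more than its SD, or a count of calls) and 0 reversed. The other 78 kept their call or stayed within the SD, which for Mir185 and the share of the 5 genes is larger than the mean. Part of these 78 could not have come out otherwise. With 2 libraries, leaving out 1 always stays within the SD. The 2 added counts enter the ratios only, so they could not change a call. Family shares on either strand rest on the same counts, because the 5 genes have no reads on the opposite strand. The error model mattered most for calls. With edgeR's exact test at a BCV of 0.1, 2 of the 5 genes, 15 lipid list genes and 157 of all 546 genes were called, and at the common BCV 0, 2 and 6 were, against 5, 27 and 321 in the exact binomial test. Both of these settings replace counting error by a larger spread. The common BCV holds the difference of the same 2 libraries, so its few calls follow in large part by construction. Log2 ratios kept their sign over 9 settings, from 0.42 to 0.50 for Mir33, -0.58 to -0.51 for Mir148a, -0.90 to -0.82 for Mir148b, -0.54 to -0.46 for Mir152 and 3.64 to 3.71 for Mir185. All of these settings rest on the same counts of the 5 genes, and scaling moved the ratios little. The kept signs and the 0 reversals therefore carry little weight. Levels moved with the denominator by construction. With all reads as the denominator they were, in CPM, 9.39 for Mir33, 8.60 for Mir148a, 15.7 for Mir148b, 7.53 for Mir152 and 357 for Mir185, with a share of 0.0398% for the 5 genes. With a denominator that leaves out the 10 most abundant genes they were 67.8, 62.0, 113 and 54.3, with 2592 for Mir185, and the share of the 5 genes was 0.289%. No paired analysis was possible because there is 1 group. Mir33 and the family rest on 99 to 264 counts per library, and 2 libraries give no firm estimate of the spread. Without replicate 2 Mir185 stands at 160 CPM and the share at 0.0306%, and without replicate 1 at 2043 CPM and 0.215%.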
